A study of Homo sapiens and Mus musculus with 6 samples.

Results

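Cyclins, cyclin-dependent kinases (CDKs) and CDK inhibitors are the genes described here, by the chromosomal contacts of their promoters. Promoter Capture Hi-C (CHi-C) ligates fragments that lie close together in the nucleus and enriches the products for baits, which are HindIII fragments that hold annotated promoters. The data come from GM12878, a human B-lymphoblastoid cell line (3 biological replicates, hg19), and from untreated mouse embryonic stem cells (mESCs) of the strain 129S4/SvJae (2 biological replicates, mm9), with 1 Hi-C library of mESCs beside them. Neither cell type carried an engineered allele or a treatment according to the labels, and each is a single line from a different species. Calls were made by the authors on all replicates of a cell type together, with the CHiCAGO algorithm. A call is a bait and another fragment (the other end) with a CHiCAGO score of at least 5, where the score measures how far the read count exceeds the background expected at that distance.

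Members were the genes whose symbol on a bait is CCN with a letter and digits (or CCNC, CCNF, CCNH, CCNI, CCNK or CCNO), CDK with digits, or CDKN followed by a digit. Of 92929 calls from 15389 baits in GM12878, 462 calls from 45 baits carried a member, and of 101841 calls from 16265 baits in mESCs, 360 calls from 34 baits did. Of 55 symbols in the lists by role, 49 stood on a bait with a call in at least 1 cell type and 30 in both, with 15 in GM12878 only and 4 (CCNG2, CCNI, CCNT1 and CDK20) in mESCs only. The symbols on no bait with a call were CCNJ, CCNT2, CCNY, CDK9, CDK10 and CDK14. Every member bait held an annotated start of its own gene. In mESCs each member bait carried 1 gene name, while 23 of the 45 GM12878 baits carried other symbols too, so their calls cannot be assigned to the member alone. The single mouse name is a matter of labelling, since the Cdk2, Ccni and Ccnt1 baits also hold a start of another coding gene (Pmel, 2010109A12Rik and 4930415O20Rik). A member can be missed in mESCs for the same reason, as the start of Cdk4 lies on a bait named March9. A pair of baits called from both ends stands as 2 calls in the totals and bait-to-bait shares over all calls. In those of the members it does so only where both baits carry a member, since calls from other baits are left out.

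Cyclins bind and activate CDKs, and inhibitors of the CIP/KIP and INK4 families hold them in check. D cyclins with CDK4 and CDK6 act in G1, cyclin E with CDK2 at entry into S phase, and A and B cyclins with CDK2 and CDK1 through S phase and mitosis. Another branch of the family, with cyclins C, H, K, L and T and the kinases CDK7, CDK8, CDK9, CDK12, CDK13 and CDK19, acts on transcription. Promoters of genes expressed late in the cell cycle are known for CCAAT boxes and a cell cycle homology region (CHR), and those of G1/S genes for E2F sites.

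The promoters below, except that of CDK1, are shown because they belong to genes whose calls the results turn on. Each covers 300 bases around a RefSeq start (GRCh38.p14 table), found letter for letter on the gene's hg19 bait, and runs 5′ to 3′ along the gene. CCNB1 and CDK7 were called as each other's partner, CDK6 had the highest score in GM12878, and CDKN1B the largest ratio of GM12878 to mESC calls. The call between CCNB1 and CDK7 involved another CCNB1 bait (chr5:68471391-68473549), which does not hold the CCNB1 window shown. CDK1, with a single call, was chosen because its promoter holds all of the motifs marked here. Capitals mark CCAAT, the CHR letters TTTGAA and the E2F-type letters TTTNNCGC on either strand.
CCNB1, chr5:68462727-68463026, plus strand: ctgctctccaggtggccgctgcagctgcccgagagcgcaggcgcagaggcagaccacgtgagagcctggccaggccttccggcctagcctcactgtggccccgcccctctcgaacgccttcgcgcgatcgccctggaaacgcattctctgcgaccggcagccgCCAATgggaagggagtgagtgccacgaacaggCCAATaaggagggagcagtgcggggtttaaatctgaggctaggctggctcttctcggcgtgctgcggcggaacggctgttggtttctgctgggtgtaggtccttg
CDK7, chr5:68530463-68530762, plus strand: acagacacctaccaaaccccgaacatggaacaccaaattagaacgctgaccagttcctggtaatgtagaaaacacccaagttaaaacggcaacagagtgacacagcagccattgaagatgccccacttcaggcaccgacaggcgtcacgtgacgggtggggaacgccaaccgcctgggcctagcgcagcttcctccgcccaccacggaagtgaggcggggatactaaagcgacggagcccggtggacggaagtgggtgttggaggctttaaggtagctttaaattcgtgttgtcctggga
CDK1, chr10:62537986-62538285, plus strand: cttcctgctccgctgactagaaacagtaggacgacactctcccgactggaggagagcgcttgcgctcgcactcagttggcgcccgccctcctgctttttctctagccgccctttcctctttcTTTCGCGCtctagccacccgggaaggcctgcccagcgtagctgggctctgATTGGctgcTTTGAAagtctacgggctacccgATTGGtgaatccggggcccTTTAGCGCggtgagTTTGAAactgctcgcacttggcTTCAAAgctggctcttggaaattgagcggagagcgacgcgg
CDK6, chr7:92465838-92466137, minus strand: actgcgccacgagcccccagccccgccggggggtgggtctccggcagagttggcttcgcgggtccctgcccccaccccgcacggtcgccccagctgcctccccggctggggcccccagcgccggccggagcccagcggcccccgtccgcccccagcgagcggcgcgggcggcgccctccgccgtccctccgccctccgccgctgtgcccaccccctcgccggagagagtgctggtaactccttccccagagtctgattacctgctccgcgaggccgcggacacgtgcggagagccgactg
CDKN1B, chr12:12870052-12870351, plus strand: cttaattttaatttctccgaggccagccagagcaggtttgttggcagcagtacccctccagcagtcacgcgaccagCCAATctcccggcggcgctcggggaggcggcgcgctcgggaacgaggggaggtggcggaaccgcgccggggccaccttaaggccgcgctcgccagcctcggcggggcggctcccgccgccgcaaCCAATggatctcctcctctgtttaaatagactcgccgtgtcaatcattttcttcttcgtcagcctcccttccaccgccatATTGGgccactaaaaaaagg

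Of the 45 members on GM12878 baits, 40 had a promoter in the RefSeq table and 38 were found on their bait. CCAAT stood in a window of 18 of the 40 genes (45.0%), against 39.7% of the 27305 genes in the table. TTTNNCGC stood in 7 (17.5% against 8.23%) and TTTGAA in 6 (15.0% against 18.2%). The 6 with TTTGAA, which were CCNB2, CCNC, CCNF, CDK1, CDK19 and CDKN3, also held CCAAT, and CCNF, CDK1 and CDK19 held all 3 motifs. The CDK1 window shown held 2 CCAAT, 3 TTTGAA and 2 TTTNNCGC matches, and the CDK6 and CDK7 windows held none. CDK1 was picked for its motifs, and another window of the gene, not shown, held 1 match of each. These are matches of letters within the window and were not tested as binding sites.

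Member baits made more calls than the usual bait in both cell types. A member bait had a median of 5 calls in GM12878, against 3 over all baits, and 6 against 3 in mESCs. The interquartile range over member baits was 2 to 12 calls in GM12878 and 3.25 to 14.8 in mESCs. Member baits were also longer, with a median of 8.68 kb against 6.94 kb in GM12878 and 6.14 kb against 5.74 kb in mESCs, and the part of bait length in the number of calls was not tested. With 1 joint set of calls per cell type there is no replicate error. The 95% intervals below therefore cover counting error only, and they are too narrow because calls at neighbouring fragments are not independent.

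**Figure D1:**
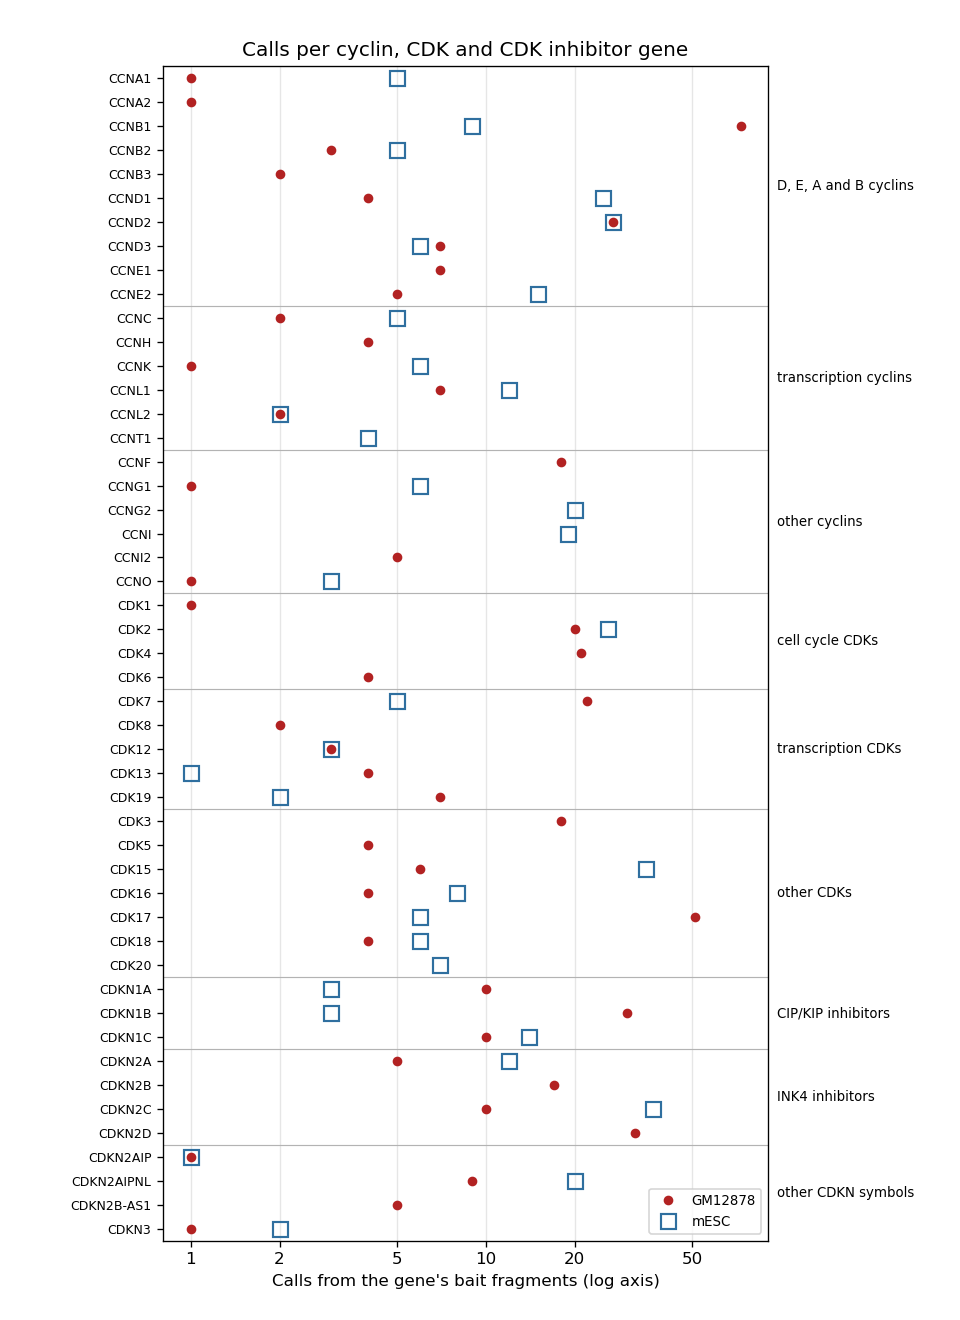
Number of calls from the baits of each gene (log axis) in GM12878 (filled circles) and mESCs (open squares), with genes grouped by role. CCNB1 and CDK17 stand at 73 and 51 calls in GM12878, and CDKN2C and CDK15 at 37 and 35 in mESCs. A missing symbol means that the gene was named on no bait with a call in that cell type.

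The distance between a member's bait and its other ends ran in opposite directions in the 2 cell types relative to all calls. In GM12878 the median cis distance of member calls was 143 kb (95% interval 129 to 160 kb), below the 174 kb of all calls. In mESCs it was 211 kb (184 to 233 kb), above the 139 kb of all calls. Calls under 100 kb made up 35.5% of member calls in GM12878, against 29.8% of all calls, and 23.6% in mESCs, against 39.0%. Over 1 Mb lay 5 member calls in GM12878 (1.08%, exact binomial 95% interval 0.352 to 2.51%) and 24 in mESCs (6.67%, 4.32 to 9.76%), against 1.64% and 3.37% of all calls. Of those 24, 17 came from the Cdkn2c bait.

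The other end was itself a bait in 103 of 462 member calls in GM12878 (22.3%, 18.6 to 26.4%) and in 89 of 360 in mESCs (24.7%, 20.4 to 29.5%). Both shares lay below those of all calls, which were 29.4% and 36.3%. Of these bait-to-bait calls, 54 in GM12878 (52.4%, 42.4 to 62.4%) and 54 in mESCs (60.7%, 49.7 to 70.9%) were also called from the partner's bait, against 31.2% and 41.6% over all calls. The read count given with a call is the authors' weighted mean over replicates. Its median was 17 for member calls in GM12878 (range 4 to 103) and 12 in mESCs (range 3 to 256), next to 16 and 13 over all calls.

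Other ends of member calls held an annotated protein-coding start in 32.0% of GM12878 calls (27.8 to 36.5%) and 26.9% of mESC calls (22.4 to 31.8%). No protein-coding gene overlapped the other end in 23.4% (19.6 to 27.5%) and 39.4% (34.4 to 44.7%), and the 2 annotations differ in version and depth. Calls lay upstream and downstream of the gene about evenly, with 49.4% upstream in GM12878 (44.7 to 54.0%) and 52.3% in mESCs (46.9 to 57.6%). None of the shares in this paragraph was computed over all calls, so whether they differ from those of other baits is not known.

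**Figure D2:**
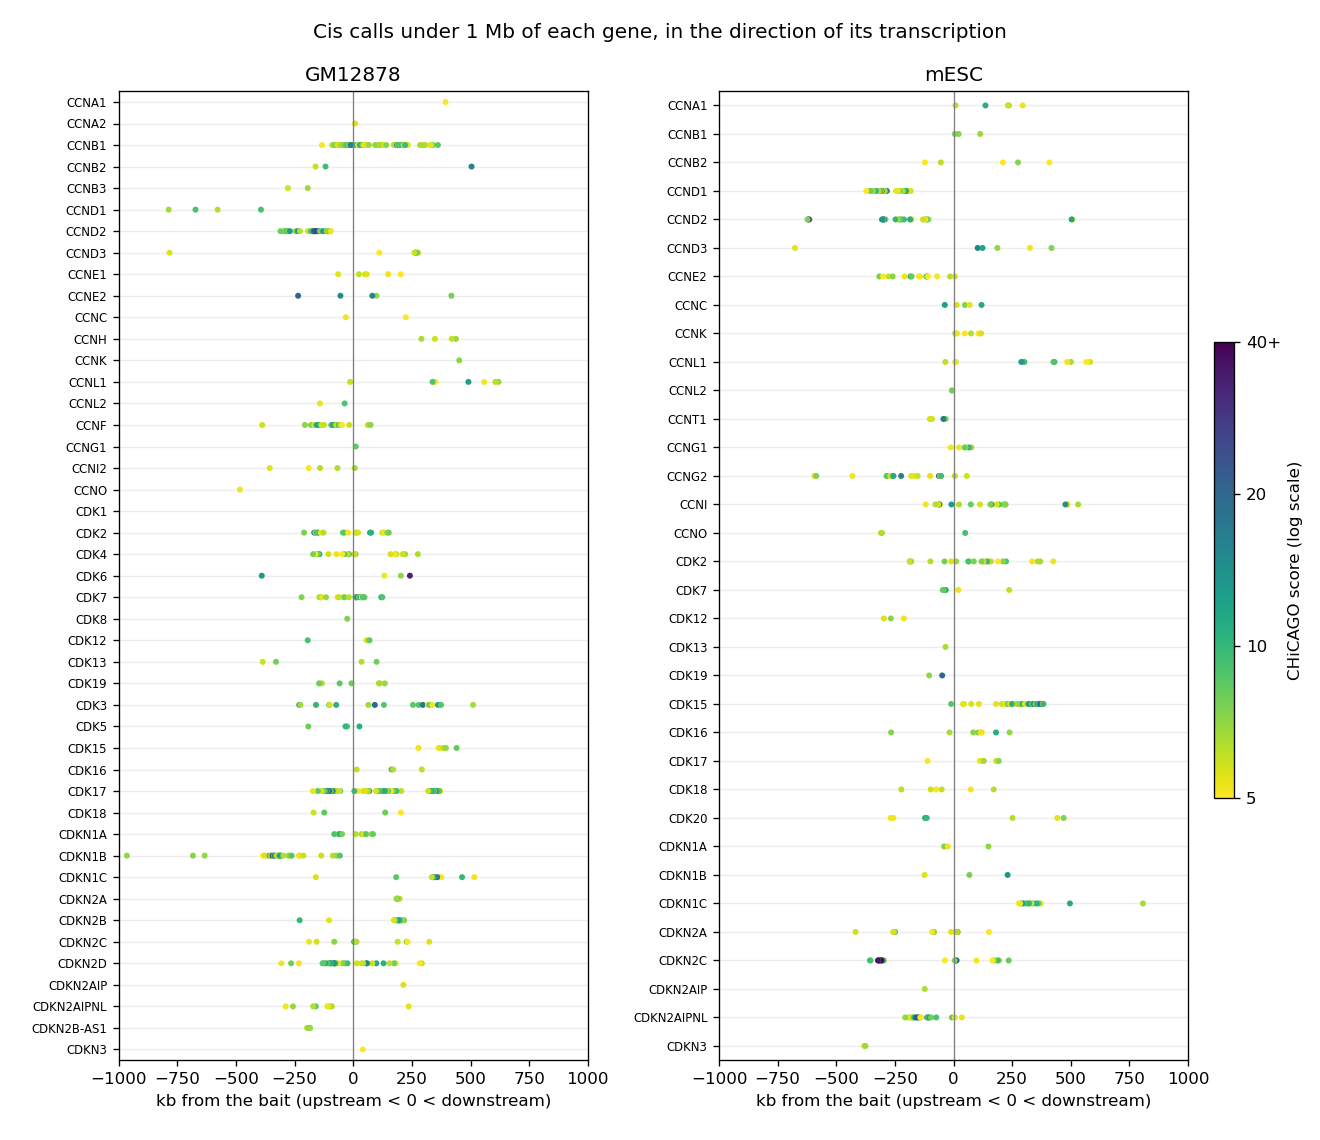
Each point is a cis call under 1 Mb, placed by its distance in kb from the bait along the direction of transcription of the gene (upstream negative), with colour giving the CHiCAGO score on a log scale that ends at 40. CCND2 and CDKN1B in GM12878 and Ccnd1 in mESCs have upstream calls only, while Cdkn1c calls in mESCs lie downstream; the row of CDK1 is empty because its single call lay beyond 1 Mb.

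D, E, A and B cyclins drive the cell cycle itself, and their baits made 130 calls in GM12878 (10 genes, median 4.5 calls a gene) and 92 in mESCs (7 genes, median 9). Of the D cyclins, which activate CDK4 and CDK6, CCND1 and CCND2 contacted mostly upstream DNA and CCND3 mostly downstream DNA. CCND2 made 27 calls in each cell type. In GM12878 all 27 lay upstream, at 95.5 to 311 kb, on 10 to 34 reads, and none touched a bait or a protein-coding gene. In mESCs 24 of the 27 Ccnd2 calls lay upstream, and 20 of them formed a run at 107 to 305 kb that reached Parp11. The Ccnd2 bait also contacted the start of Prmt8 at 619 kb on 42 reads (score 38.4) and the start of Kcna1, a potassium channel gene, at 504 kb on 19 reads (score 11.7).

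CCND1, the cyclin D1 gene, made 4 calls in GM12878 and 25 in mESCs, all upstream in both. The mESC calls filled 183 to 372 kb on 8 to 34 reads, with the strongest at 307 kb (score 35.0) in DNA without a protein-coding gene. The farther ones, from 316 kb, lay in Tpcn2 and Mrgprf. The GM12878 calls stood farther off, at 394 to 787 kb, on 6 to 12 reads, and their other ends included the MYEOV start and an intron of TPCN2. Other ends reached TPCN2 and MRGPRF in both species. CCND3 made 7 calls in GM12878, of which 6 lay downstream, and 6 in mESCs, of which 5 did. In both, 1 other end was the PRICKLE4 bait, at 271 and 187 kb.

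Cyclin E genes act at the start of S phase. CCNE1 had 7 calls in GM12878 with scores of 5.05 to 6.06, of which 6 lay at 24.0 to 202 kb and 1 at 2.55 Mb on 5 reads. It had no bait with a call in mESCs, where its fragment was called only as the other end of 2 other baits. CCNE2 had 5 calls in GM12878, all to other baits, and 15 in mESCs, of which 14 lay upstream. The PLEKHF2 bait was its highest-scoring partner in GM12878 (235 kb, 21 reads, score 20.4) and was called in mESCs too (183 kb, 16 reads, score 10.4).

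Cyclin A had few calls in GM12878. CCNA2, the A cyclin of dividing somatic cells, had a single call, 7.82 kb away within its own gene on 58 reads (score 5.62), and CCNA1, best known from the germ line, a single call to RFXAP at 393 kb. In mESCs Ccna1 made 5 calls, all downstream. CCNB2, a mitotic cyclin, made 3 and 5 calls, and the SLTM bait was among them in both (161 and 122 kb). CCNB3 made 2 calls in GM12878, at 194 and 279 kb on 4 to 5 reads.

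CCNB1, the main mitotic partner of CDK1, made the most calls of any member in GM12878. Its 73 calls came from 2 baits, with 39 and 34 calls, spanned 7.78 to 361 kb and lay mostly downstream (50 against 23 upstream). Fragments called from both baits count once for each bait in the 73. They include 11 fragments that no other member called and several that CDK7 called too. Only 1.11% of all baits had as many calls as the first. The highest score, 16.7 on 16 reads, belonged to a fragment with an exon of TAF9, 199 kb away. The mESC bait made 9 calls, of which 3 were in cis at 5.77 to 114 kb and 6 were on other chromosomes.

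Those 6 were the only calls of any member between chromosomes in either cell type. Of their other ends, 3 carried a copy of a stretch of 173 bases on the Ccnb1 bait (chr13:101555687-101555859 in mm9), which covers an exon of Ccnb1. These were the fragments on chromosome 4 (13 reads, score 85.6), chromosome 7 (6 reads, score 34.8) and, of 2 on chromosome 14, the one with 9 reads (score 57.5). Those on chromosomes 4 and 7 overlap annotated pseudogenes, Gm12856 and Gm5593. The copy on chromosome 7 was identical over the 173 bases, and those on chromosomes 4 and 14 differed at 3 positions each (98.3% identity). The sequences follow on the strand of the gene, with differences from the bait in capitals.
Ccnb1 bait, chr13:101555687-101555859, minus strand: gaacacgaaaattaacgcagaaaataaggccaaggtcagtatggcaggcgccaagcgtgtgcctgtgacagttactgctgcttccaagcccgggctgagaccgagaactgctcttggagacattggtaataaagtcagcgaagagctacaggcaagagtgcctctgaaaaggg
Copy on chromosome 14, chr14:9241449-9241621, plus strand: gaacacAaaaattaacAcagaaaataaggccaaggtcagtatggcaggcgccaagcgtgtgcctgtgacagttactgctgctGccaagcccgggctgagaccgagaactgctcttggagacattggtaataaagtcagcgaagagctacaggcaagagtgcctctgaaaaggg
Copy on chromosome 4, chr4:118615765-118615937, minus strand: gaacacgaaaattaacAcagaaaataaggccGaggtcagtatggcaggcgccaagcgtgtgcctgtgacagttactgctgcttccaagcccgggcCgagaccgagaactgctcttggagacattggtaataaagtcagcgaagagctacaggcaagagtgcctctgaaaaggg

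Counted from the first base shown, the chromosome 14 copy has G7A, G17A and T83G, and the chromosome 4 copy G17A, A32G and T96C, with the bait's base first. The other 3 fragments did not align with the bait, although 1 adjoins the chromosome 14 copy, and had 3, 3 and 5 reads. Reads from such copies cannot be told apart from the gene where the sequence is the same, and its part in these 6 calls was not tested. In mESCs 0.569% of all calls were between chromosomes. For GM12878 members the count was 0 of 462 calls, which allows a share of up to 0.795% (exact binomial bound). Over all GM12878 calls the share was 0.310%, which lies below that bound.

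Transcription cyclins made 16 calls from 5 genes in GM12878 and 29 from 5 genes in mESCs. Their median was 2 calls a gene in GM12878, against 4 over all genes, and 5 against 3 in mESCs. CCNL1, a cyclin linked to splicing, had the most in both, with 7 and 12, and reached SSR3 (606 and 567 kb) and LEKR1 (338 and 289 kb) in both. CCNC, the cyclin partner of CDK8 and CDK19, contacted the PRDM13 bait in both (31.9 kb on 15 reads and 37.4 kb on 32 reads). Its calls numbered 2 and 5. CCNK, the partner of CDK12 and CDK13, had 1 call in GM12878 and 6 in mESCs. CCNH, the partner of CDK7, had 4 calls in GM12878 and CCNT1, the partner of CDK9, 4 in mESCs. CCNL2 had 2 in each.

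Among the other cyclins, Ccng2 and Ccni are neighbours in the mouse and were called from both ends. Their baits (chr5:93694457-93699598 and chr5:93633509-93636914 in mm9) lay 61.8 kb apart and shared 49 reads, with scores of 31.6 from Ccng2 and 32.0 from Ccni. Ccng2 made 20 calls and Ccni 19, and 6 other fragments were called from both. In GM12878 neither gene stood on a bait with a call, and both were called as the other end of RNU6-1187P. CCNF made 18 calls in GM12878, of which 16 lay upstream. CCNG1 had 1 call in GM12878 and 6 in mESCs, and CCNO, known from multiciliated cells, had 1 and 3. CCNI2 made 5 calls in GM12878, with the strongest inside its own gene (6.25 kb, 59 reads, score 6.80).

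The 4 cell cycle kinases had calls in GM12878, but in mESCs only Cdk2 was named on a bait with calls. The start of Cdk4 lies on a mouse bait named March9, so any calls of that bait were not counted for Cdk4. CDK1, the mitotic kinase, had a single call, to ARID5B at 1.12 Mb on 7 reads (score 7.36). CDK4 made 21 calls at 6.14 to 276 kb from a bait it shares with MARCH9. CDK6 made 4 calls, and the one to FAM133B at 241 kb had the highest score of any member in GM12878, 32.4 on 26 reads. It was called from the FAM133B bait as well, with a score of 10.3.

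CDK2, the kinase of S phase, had 20 calls in GM12878 and 26 in mESCs. PA2G4, ZC3H10 and DNAJC14 were partner baits in both, at 137 to 151 kb in GM12878 and at 98.4 to 159 kb in mESCs. Counting genes that the other end overlaps, 10 were shared, including ERBB3 and IKZF4. Also among them are PMEL and RAB5B, which have a start on the GM12878 CDK2 bait itself, as Pmel has on the mouse bait. These calls therefore cannot be assigned to CDK2 alone. In mESCs 3 Cdk2 calls lay beyond 1 Mb, and the one at 1.65 Mb (7 reads, score 7.70) ended on a bait named March9 that also holds the start of Cdk4. Each of these 3 other ends aligned with the Cdk2 bait over 179 to 300 bases at 74.5 to 88.3% identity, and the part of that in the calls was not tested. Only calls beyond 1 Mb or between chromosomes were aligned, so how often baits align with nearer other ends is not known.

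Transcription kinases made 38 calls in GM12878 (5 genes) and 11 in mESCs (4 genes). CDK7, which with cyclin H is part of TFIIH, accounted for 22 and 5 of them. Its strongest call in GM12878 lay inside the gene, 10.6 kb from the bait, on 52 reads (score 24.3). CDK19 contacted the AMD1 bait in both cell types (58.2 kb on 41 reads and 48.4 kb on 17 reads), with 7 and 2 calls in all. CDK12 had 3 calls in each, CDK13 had 4 and 1, and CDK8 had 2 in GM12878, of which 1 lay at 1.07 Mb on 4 reads and aligned with the bait over 316 bases (81.0% identity).

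The neighbouring genes CCNB1 and CDK7 contacted each other in GM12878. The second CCNB1 bait (chr5:68471391-68473549) and the CDK7 bait (chr5:68530142-68548827) lay 67.0 kb apart with 17 reads, a score of 6.78 from CCNB1 and 5.34 from CDK7. Baits of both genes called 17 fragments in common. These include that second CCNB1 bait, a CENPH bait and the TAF9 fragment with the highest CCNB1 score. In mESCs the Cdk7 bait contacted a Cenph bait that overlaps Ccnb1, at 45.8 kb on 20 reads (score 8.30), and CENPH, a kinetochore gene, was a partner of CDK7 in both cell types.

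Other CDKs, whose roles are less tied to the cell cycle, included the most connected kinases. CDK17 made 51 calls in GM12878, a number that 0.468% of all baits reached, and 6 in mESCs. In GM12878 40 of them lay within 205 kb and 11 around LTA4H at 320 to 371 kb, and the strongest was at 106 kb in CFAP54 (41 reads, score 21.4). The ELK3 gene, which encodes an ETS factor, was reached in both. CDK15 made 6 calls in GM12878 and 35 in mESCs, where 34 lay downstream and the highest score was 22.7 at 373 kb, in Gm973. CDK16 had 4 and 8 calls, CDK18 had 4 and 6, and CDK3, on a bait it shares with EVPL, made 18 in GM12878, of which 14 were to baits. CDK5, a kinase of neurons, made 4 in GM12878, all to baits, and CDK20 made 7 in mESCs.

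The CIP/KIP inhibitors bind cyclin-CDK complexes. CDKN1B made 30 calls in GM12878 and 3 in mESCs, the largest ratio of any matched member (10.0). All 30 lay upstream. A run of 25 stretched from 57.1 to 385 kb across GPR19, CREBL2, DUSP16, BORCS5 and MANSC1, with the top score, 27.0 on 41 reads, at 343 kb in a BORCS5 intron, and 2 calls lay at 1.16 Mb, where the other ends aligned with the bait over 247 and 295 bases (81.0 and 78.0% identity). The 3 mESC calls, on 6 to 9 reads, ended on 3 baits, of which Dusp16 was one, and a fragment with the DUSP16 start was called in GM12878 at 212 kb.

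CDKN1A, an inhibitor that can halt the cycle in G1, made 10 calls within 84.1 kb in GM12878 and 3 within 149 kb in mESCs. CPNE5 was reached in both. CDKN1C, an imprinted gene, made 10 and 14 calls, and in both cell types most ran through KCNQ1, the gene that holds the imprinting control region of the domain. In mESCs 12 lay at 279 to 373 kb, the farthest calls reached Ascl2 (496 kb) and an Igf2 start (808 kb), and all 14 lay downstream. In GM12878 the strongest was at 358 kb (14 reads, score 17.3), and 9 of 10 lay downstream. The TRPM5 bait was a partner in both, at 464 and 373 kb.

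INK4 inhibitors bind CDK4 and CDK6. CDKN2D made 32 calls in GM12878 at 14.9 to 306 kb and was named on no bait with a call in mESCs. CDKN2A and CDKN2B share a bait in GM12878, with the antisense gene CDKN2B-AS1, so that the same 5 calls at 184 to 197 kb count for all 3. A further CDKN2B bait made 12 more, and all 5 fragments of the shared bait were called from it too. These fragments lie in MTAP, which neighbours the locus. In mESCs Cdkn2a made 12 calls, of which 7 lay within 91.5 kb, and Mtap was reached there as well.

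Cdkn2c, the INK4 gene on mouse chromosome 4, made 37 calls in mESCs against 10 in GM12878, and only 1.38% of mESC baits had as many. Its 3 highest scores were the highest of any member, at 171, 121 and 102 on 135, 127 and 85 reads. They belonged to fragments at 310 to 319 kb, of which 2 overlap Dmrta2, which encodes a DM-domain transcription factor. The fragment with 256 reads, the most of any member call, was much closer, at 9.46 kb, and scored 32.6. In GM12878 no CDKN2C call lay beyond 324 kb, and the top score was 12.4.

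A further 17 calls of the Cdkn2c bait (chr4:109338106-109340005 in mm9) lay at 5.18 to 20.4 Mb. Of these, 7 stood at 5.18 to 5.26 Mb around Foxd2 and Foxe3, on 6 to 23 reads with scores up to 62.9. Another 3 stood at Tal1 (5.38 to 5.40 Mb, 6 to 8 reads) and 3 near Dmbx1 (6.27 to 6.31 Mb, 5 to 11 reads), and 1 stood alone at 10.7 Mb on 4 reads. Foxd2, Foxe3, Tal1 and Dmbx1 all encode developmental transcription factors. All 6 baits among the Cdkn2c other ends called Cdkn2c in return, with scores of 141 from the Dmrta2 fragment, 70.6 from Foxd2, 45.0 from the noncoding gene 9130410C08Rik, 32.7 from Foxe3, 30.6 from Dmbx1 and 14.9 from Tal1. None of the 17 far fragments aligned with the bait, which is 1900 bases long, against 8954 for the Cdk2 bait. The part of bait length in this was not tested.

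The farthest 3 of these calls, at 20.4 Mb, joined Cdkn2c to another INK4 gene. They lay on both sides of Cdkn2a, on 4 to 5 reads with scores of 6.79 to 11.5, and 1 of the fragments (chr4:88920322-88921994) overlaps a Cdkn2a exon. That fragment and its neighbour were also called from the Cdkn2a bait, at 16.6 and 17.7 kb. With 4 to 5 reads a call, the depth behind them is low.

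**Figure D3:**
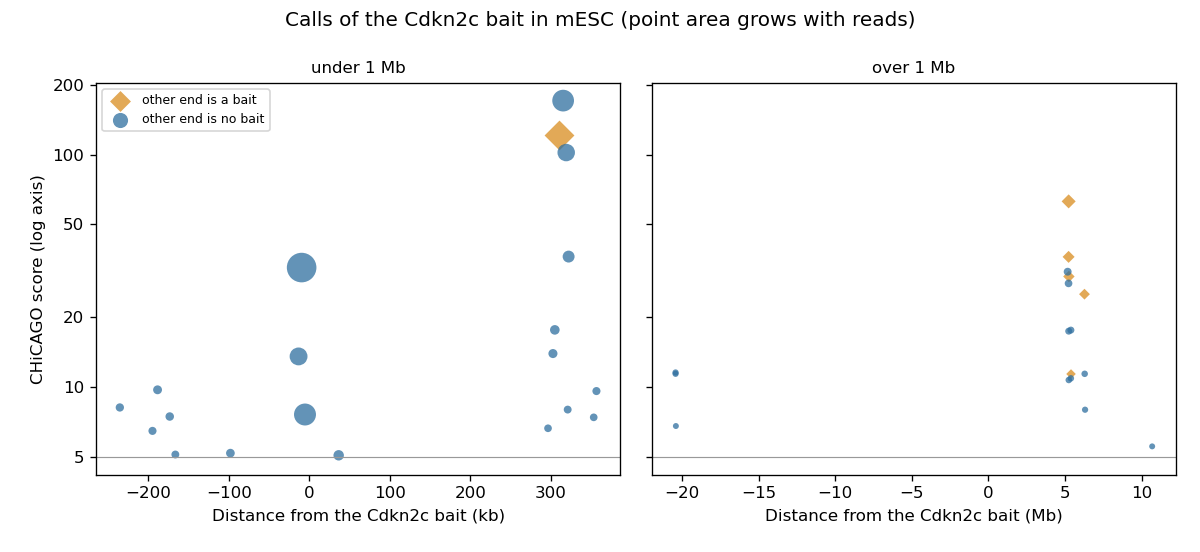
Calls of the Cdkn2c bait in mESCs, by signed distance along the chromosome (left in kb, right in Mb) and CHiCAGO score on a log axis, with point area growing with reads and diamonds marking other ends that are baits. The highest scores, up to 171, stand about 310 to 319 kb away, and separate groups stand near 5 and 6 Mb on one side and at 20.4 Mb on the other.

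Beyond 1 Mb there were also single calls with few reads. Ccnd2 was joined to a fragment at 43.4 Mb that overlaps the noncoding gene Vax2os1 (5 reads, score 12.3) and to Tead4 at 1.15 Mb (11 reads, score 8.24), of which the latter was called from both ends. Ccnl1 and Ccng2 each had 1 call on the far side of 1 Mb, at 1.03 Mb on 5 reads and 1.15 Mb on 4 reads. These other ends aligned with their baits over 157 and 146 bases (85.4 and 72.6% identity), and the one near Vax2os1 over 44 bases (86.4%).

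Some symbols taken by the rule do not name an inhibitor. CDKN2AIP and CDKN2AIPNL encode a CDKN2A-interacting protein and its relative, CDKN3 a phosphatase that acts on CDKs, and CDKN2B-AS1 a noncoding RNA. Cdkn2aipnl made 20 calls in mESCs, of which 18 lay upstream, with the top score of 27.9 at 152 kb in Phf15, and 9 in GM12878, where the strongest was to the JADE2 bait. CDKN2AIP had 1 call in each and CDKN3 had 1 and 2.

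The 2 cell types were compared over genes whose symbol stood on a bait with a call in both lists. Of 30 such members, 7 made at least 2-fold more calls in GM12878 (23.3%), where 31.8% of all 7880 matched genes did. At least 2-fold more calls in mESCs were made by 13 (43.3%), where 33.1% of all matched genes did. Both differences from all matched genes turned round at a score of at least 10, with 9 members left: 4 (44.4%, against 32.9%) then had 2-fold more calls in GM12878 and 1 (11.1%, against 28.8%) in mESCs. At 3-fold the GM12878 share of members also stood above that of all matched genes (23.3 against 20.8%). The median ratio of GM12878 to mESC calls was 0.633 for members and 1.00 for all matched genes. Spearman's rho between the 2 call numbers was 0.439 across the 30 members and 0.251 across all matched genes, as a description across genes that are not independent. No replicates stand behind a gene's number of calls, so none of these ratios carries an error, and with few calls a 2-fold ratio can rest on 1 call.

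Higher in GM12878 were CDKN1B (30 against 3), CDK17 (51 against 6), CCNB1 (73 against 9), CDK7 (22 against 5), CDK13 (4 against 1), CDK19 (7 against 2) and CDKN1A (10 against 3). The CCNB1 calls came from 2 baits in GM12878, which called many fragments in common, and from 1 bait in mESCs. Higher in mESCs by more than 3 times were Ccnd1 (25 against 4), Ccng1 and Ccnk (6 against 1 each), Cdk15 (35 against 6), Ccna1 (5 against 1) and Cdkn2c (37 against 10). The remaining 7 of the 13 were CCNE2, CCNO, CCNC, CDKN2A, CDKN2AIPNL, CDK16 and CDKN3, at 2.00 to 3.00 times. CCND2, CCNL2, CDK12 and CDKN2AIP had equal numbers in both.

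**Figure D4:**
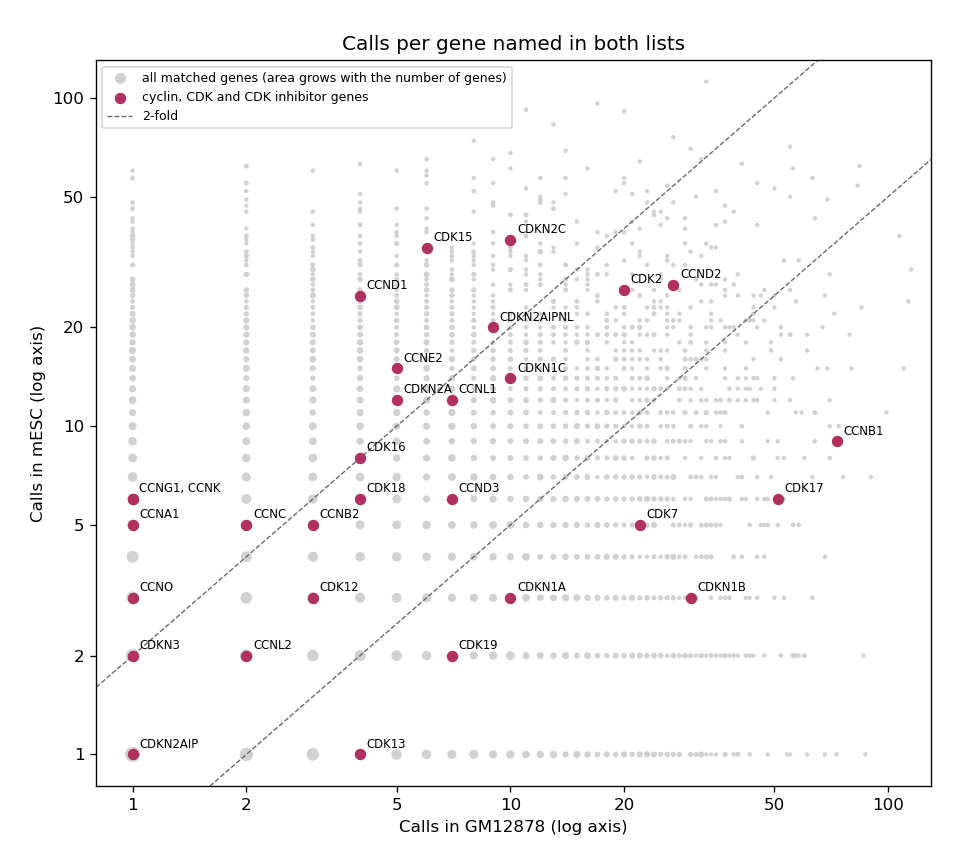
Calls per gene in GM12878 (x axis) and mESCs (y axis), both on log axes, for the 7880 genes with a call in both lists (grey, area growing with the number of genes) and the 30 members (named); dashed lines mark 2-fold. The member farthest below the diagonal is CDKN1B (30 against 3), and CCND1 (4 against 25) and CDK15 (6 against 35) stand far above it.

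Conserved partners were counted in 2 ways. A partner bait of the same symbol was found in both cell types for 9 of the 30 members (30.0%), where 23.2% of all matched genes had one. Over 50 kb away the shares were 20.0 and 19.8%, and at a score of at least 10 they were 11.1 and 14.9%. The 9 genes were CCNB2, CCNC, CCND3, CCNE2, CCNL1, CDK2, CDK7, CDK19 and CDKN1C, with the partners given above. When any protein-coding gene that the other end overlaps was counted, 20 of 30 members (66.7%) reached the same gene in both, where 49.5% of all matched genes did. Both ways match genes by symbol, so a gene named differently in the 2 lists is missed. For example, JADE2 in GM12878 and Phf15 in mESCs, both partner baits of CDKN2AIPNL, count as different symbols. Members also had more calls than the usual gene, which gives more chances to share one, and the part of that in these shares was not tested.

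The mESC Hi-C data are from before capture, so they are not independent of the CHi-C libraries, and were called in bins of 25 kb. Of 330 member calls under 1 Mb, 48 (14.5%, exact binomial 95% interval 10.9 to 18.8%) lay in a bin pair with an FDR under 0.05, and of all such calls 11.6% did. The share rose with the CHiCAGO score in members, from 10.0% at scores of 5 to 10 to 26.7% at 10 to 20 and 54.5% (6 of 11) from 20, and in all calls from 8.39 to 23.2 and 60.1%. The 48 came from 10 of 34 genes. Cdk15 had 13 of its 35 calls in such a pair, Cdkn2c 8 of 20 and Cdkn2a 7 of 12. The 8 of Cdkn2c were the run at 296 to 322 kb around Dmrta2. Ccnd2, Cdk2, Ccng2 and Ccni had none, with 25, 23, 19 and 19 calls.

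**Figure D5:**
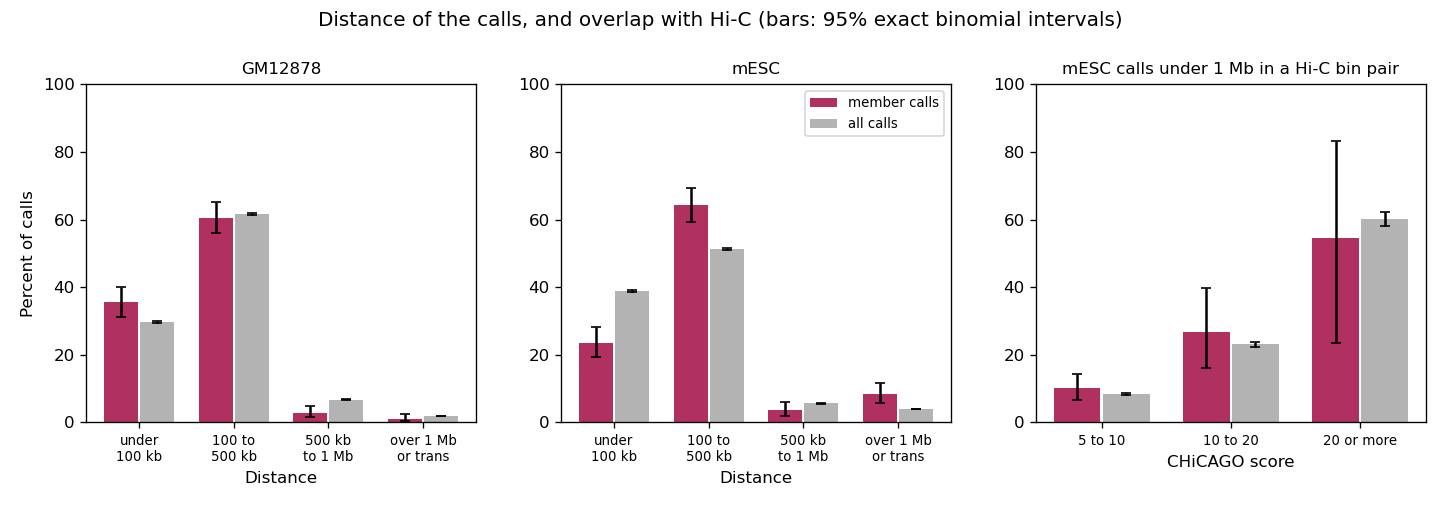
The left and middle panels give the percent of calls in each distance band for member calls and all calls in GM12878 and mESCs, and the right panel the percent of mESC calls under 1 Mb that lie in a Hi-C bin pair, by CHiCAGO score; error bars are 95% exact binomial intervals. Fewer mESC member calls than all calls lie under 100 kb (23.6 against 39.0%), and the Hi-C share rises with score in both sets.

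Other genes of the cell cycle, a list of 50 that includes RB1, the E2F genes, the MCM helicase subunits and the checkpoint kinases, gave a comparison. On baits with a call stood 44 of them in GM12878 and 36 in mESCs, with a median of 4 calls a gene in each. Members had a median of 5 and 6. Of 33 matched genes of that list, 12 (36.4%) had at least 2-fold more calls in GM12878 and 10 (30.3%) in mESCs. Bait-to-bait calls made up 31.0% (25.6 to 36.7%) of their calls in GM12878 and 47.4% (40.6 to 54.4%) in mESCs, and the latter interval lies above that of the cyclin, CDK and inhibitor genes.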

How the data were processed

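Promoter CHi-C calls of GM12878 and mESCs and 1 mESC Hi-C library were used as deposited. For CHi-C the authors mapped read pairs with HiCUP and called all replicates of a cell type jointly with CHiCAGO. The deposited read value of a call is the authors' weighted mean over replicates, rounded. It is given as reads in the text, but it is not the total of read pairs over the replicates. The deposited CHiCAGO score is the authors' soft-thresholded negative log of a weighted p-value. For Hi-C the authors deposited the count of read pairs per 25-kb bin pair and the FDR, a q-value that HOMER adjusted from its p-values. The submitters' processing notes name Bowtie 1.1.0 and HOMER 4.7. The browser copies of the calls and the 1-Mb Hi-C bins were not used.

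Both lists were read as pairs of lines, a bait and its other end. Names were split at semicolons, bars and commas, since the mouse list joins names with bars; splitting at semicolons only leaves 164 calls from 15 mouse baits. All 56775 hg19 and 52640 mm9 listed fragments matched an in silico HindIII digest. Genes were placed with GENCODE v44lift37 and vM1, and promoters with RefSeq. Bait and other-end sequences were aligned with blastn 2.17.0, without masking of repeats. This was done only for member calls beyond 1 Mb or between chromosomes, so the alignments have no background from other fragment pairs. Python 3.11.15, pandas 2.3.3 and scipy 1.17.1 were used. Shares have exact Clopper-Pearson 95% intervals and medians order-statistic intervals. Distance is between fragment midpoints. A call was in a Hi-C bin pair when both midpoints lay in its bins. No p-values were computed, since each cell type has 1 joint set of calls. Library depths cannot be read from lists of calls. The paper gives the captured read pairs of each replicate, but no number of calls here was scaled by them. It also describes the first GM12878 replicate as likely of poorer quality than the others. Genes were matched between species by symbol, ignoring case.

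Members and lists were chosen with earlier results of these data known. Genes were named by a rule: the core cyclins, CDKs and inhibitors, the 5 members with most calls and 3 highest scores per cell type, members with calls beyond 1 Mb, between chromosomes or to each other, those past 2-fold or with a shared partner, and symbols with another product. CCNF, CCNG1, CCNG2, CCNI, CCNO, CCNH, CCNT1, CCNB3, CCNI2, CCNL2, CDK3, CDK5, CDK12, CDK18 and CDK20 were added where their role group was described. The functions were tested on simulated lists. Alternatives were a score of at least 10, at least 10 reads, each fragment pair once, other name rules, a 3-fold difference, distance limits and a stricter FDR.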

Additional observations from a re-analysis of the deposited data

How the results depend on the processing

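Of 65 values under alternatives, 43 stayed within the limits set for the reported value, and 22 moved. At a score of at least 10, the calls of the members fell to 90 in GM12878 and 91 in mESCs, the bait-to-bait share was 28.9 and 31.9%, and the median read value 26 and 17. The mESC median distance was then 300 kb (299.9). With 9 matched members left, 4 (44.4%, against 32.9% of 1547 matched genes) had 2-fold more calls in GM12878, 1 (11.1 against 28.8%) in mESCs and 1 (11.1 against 14.9%) a shared partner, so that all 3 shares changed sides of the share over all matched genes. The Hi-C share was 31.0%. On at least 10 reads the median distance was 124 kb in GM12878 and 178 kb in mESCs, and the mESC median read value 15. With GM12878 baits that carry only member symbols there were 225 calls, of which 15.6% were bait-to-bait, with a median of 19 reads. At 3-fold, 8 members (26.7 against 21.5%) had more calls in mESCs and 7 (23.3 against 20.8%) in GM12878. For partners over 50 kb away, 6 members (20.0 against 19.8%) shared one. Splitting mouse names at semicolons only, an alternative chosen after seeing the data, gave 164 calls, 18.9% bait-to-bait, a median of 246 kb and 13.5 reads. The cause of these shifts was not tested. No paired analysis was possible because the calls were pooled over replicates and carry no replicate number, and for the same reason no replicate could be left out. Read values of 3 to 5 behind the farthest calls limit what depth can show there.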
